A study of Mus musculus with 34 samples.

Results

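The genes described here build and run transport inside the primary cilium and its gate. They were chosen by name from a table of 22040 genes: every *Ift*, *Bbs*, *Tctn*, *B9d*, *Nphp* and *Dync2* gene whose symbol matched a fixed pattern, plus 12 further genes given by symbol, with a mean level of at least 0.5 FPKM (fragments scaled by exon length and by the size of the library) over the 6 RNA-seq libraries. All 43 matching genes passed that level, so none was lost to it. The lowest of them was *Nphp4*, at a mean of 0.945 FPKM. No matching gene lay under the limit. RNA came from E11.5 mouse limb buds of 2 genotypes with 3 libraries each, WT and CKO. CKO embryos are Prrx1-Cre;*Hnrnpk* fl/fl, in which a Cre recombinase active in limb bud mesenchyme and calvarium removes a block of internal exons from both floxed alleles of *Hnrnpk*, an RNA- and DNA-binding protein gene. Bud cells of other lineages, such as blood, are not targeted by it and keep the gene. The labels name the controls only as *Hnrnpk* WT, give no sex and do not say whether a library holds 1 embryo or a pool.

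The primary cilium is a single membrane-bound projection on most vertebrate cells that receives hedgehog signals. Intraflagellar transport (IFT) carries cargo along its microtubules: the IFT-B complex travels outward with a kinesin motor, and the IFT-A complex returns inward with a cytoplasmic dynein. The BBSome is an adaptor that moves membrane receptors out of the cilium, and the transition zone at the base is a gate built from MKS and NPHP modules. In the limb bud, loss of cilia disturbs the response to Sonic hedgehog, and inherited defects of these genes cause polydactyly and short ribs.

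Many ciliary genes are known targets of RFX transcription factors, which bind a paired motif called the X-box. Its 14-base form, GTNNCC and GNAAC with any 3 bases between them, was searched on both strands of the RefSeq promoters (250 bases before to 50 after the annotated start, GRCm38.p6). RefSeq promoters were matched for 37 of the 43 genes, and 9 of these (24.3%) held a match. The same search found one in 294 of 9542 tested genes with a promoter (3.08%) and in 673 of all 27025 genes of that table (2.49%). Counted by promoter, the shares were 22.5% of the ciliary promoters and 2.58% of those of the tested genes. A match is a stretch of letters and was not tested for binding here. *Ift22* held 2 separate matches and the other genes 1 each. The 10 matches are shown because they are a feature that the choice by symbol did not use. Each is written 5′ to 3′ on the strand of its gene, and capitals mark the whole match.
*B9d2*, chr7:25680796-25680809 (+): GTTGCCCCAGCAAC
*Bbs1*, chr19:4906613-4906626 (-): GTTGCCAAGGCGAC
*Bbs4*, chr9:59353472-59353485 (-): GTCGCCCGGGAAAC
*Bbs7*, chr3:36613497-36613510 (-): GTTGCCTTGGAAAC
*Ift22*, chr5:136908087-136908100 (+): GTTTCCTGGGCTAC
*Ift22*, chr5:136908117-136908130 (+): GTCGCCGTGGAAAC
*Ift57*, chr16:49699207-49699220 (+): GTTGCCGTGGTGAC
*Mks1*, chr11:87853191-87853204 (+): GTTGCCAGGGGAAC
*Nphp4*, chr4:152477911-152477924 (+): GTCTCCTAGGTAAC
*Tctn1*, chr5:122264411-122264424 (-): GTTGCCCGGGCAAC

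The window bounds how far a match can lie from the start. The one of *Bbs1* began at base 2 of the transcribed stretch, and those of *B9d2*, *Bbs4* and *Tctn1* began at bases 17, 24 and 37. Upstream, the first base stood at -24 in *Mks1*, -63 and -33 in *Ift22*, -87 in *Ift57*, -121 in *Bbs7* and -231 in *Nphp4*. *Nphp4* has several RefSeq starts, and its match is placed from the one furthest downstream. That match lies inside the annotated gene, which begins at chr4:152476706. For context, the 250 bases before the start are given for *Mks1*, *Ift57* and *Bbs7*, with the X-box in capitals, and for *Bbs10*, the member with the largest fold change (below), whose window held no match to these letters.
*Mks1*, chr11:87852965-87853214 (+): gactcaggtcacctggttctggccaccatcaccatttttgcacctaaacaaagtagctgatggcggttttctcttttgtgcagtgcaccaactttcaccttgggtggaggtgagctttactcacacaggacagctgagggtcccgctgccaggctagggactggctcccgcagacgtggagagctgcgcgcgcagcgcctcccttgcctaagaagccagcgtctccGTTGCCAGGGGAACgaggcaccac
*Ift57*, chr16:49699044-49699293 (+): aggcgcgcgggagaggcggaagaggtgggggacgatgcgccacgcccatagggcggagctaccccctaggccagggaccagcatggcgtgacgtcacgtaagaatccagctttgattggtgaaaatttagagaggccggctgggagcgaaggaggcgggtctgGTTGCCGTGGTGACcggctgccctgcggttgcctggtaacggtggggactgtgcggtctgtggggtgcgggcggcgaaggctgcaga
*Bbs7*, chr3:36613390-36613639 (-): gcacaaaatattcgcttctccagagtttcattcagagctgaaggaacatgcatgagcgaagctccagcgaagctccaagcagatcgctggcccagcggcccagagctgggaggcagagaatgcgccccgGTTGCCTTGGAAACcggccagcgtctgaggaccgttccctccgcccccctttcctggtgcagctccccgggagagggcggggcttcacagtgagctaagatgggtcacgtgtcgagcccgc
*Bbs10*, chr10:111298429-111298678 (+): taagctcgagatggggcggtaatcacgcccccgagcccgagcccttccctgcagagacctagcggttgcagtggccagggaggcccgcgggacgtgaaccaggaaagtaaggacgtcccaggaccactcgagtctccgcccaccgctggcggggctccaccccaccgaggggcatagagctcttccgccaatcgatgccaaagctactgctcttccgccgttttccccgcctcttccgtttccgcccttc

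**Figure D1:**
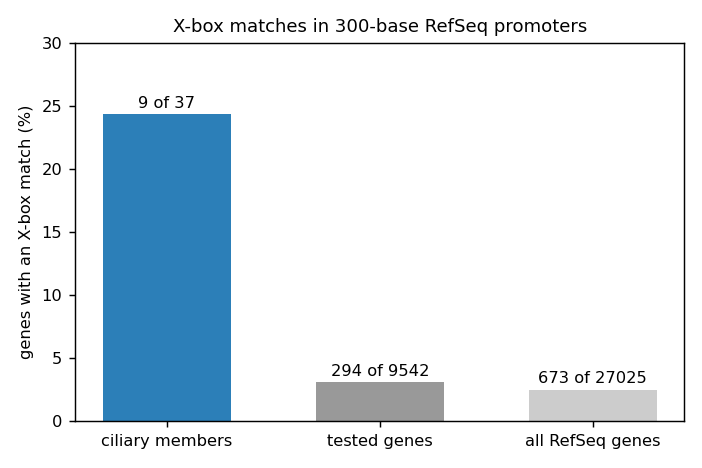
Bars give the percentage of genes whose 300-base RefSeq promoter holds an X-box match, for the ciliary genes (9 of 37), all tested genes (294 of 9542) and all genes of the promoter table (673 of 27025). The share among the ciliary genes, 24.3%, stood above the 3.08% of the tested genes, and no test was made.

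The genotypes were also compared over the genes with and without a match. Of the 9 with a match, 0 had an unadjusted limma p under 0.05, beside 8.31% of all tested genes, a share at which few or none of 9 would be counted. Their log2 fold changes ran from -0.34 to 0.32 (median -0.07). Of the 28 genes with a promoter and no match, 5 had such a p, and their median was -0.06. The median WT level was 3.72 FPKM with a match and 5.72 FPKM without. The median GC content of the ciliary promoters was 60%, beside 61.2% for the tested genes.

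The targeted gene was checked first. *Hnrnpk* stood at 193, 195 and 185 FPKM in WT replicates 1 to 3 and at 127, 142 and 135 FPKM in the 3 CKO libraries. All 3 CKO libraries were below all WT libraries. The mean was 191 ± 4.996 in WT and 135 ± 7.48 in CKO (SD, n = 3), a log2 fold change of -0.50 (SE 0.13) with an adjusted p of 0.334 by limma over 12305 genes. These values count reads from all exons, the kept ones included. The libraries held 1.71409e+07 to 2.46244e+07 reads on listed genes, as recovered from the FPKM values. The 7 globin genes took 13.7% to 20.6% of the summed FPKM in WT. In CKO replicates 1 to 3 their share was 11.7%, 32.4% and 23.5%. The summed level of 10 limb mesenchyme markers was 402 to 440 FPKM in WT and 344 to 391 FPKM in CKO, and 8 of the 10 had a log2 fold change below 0. That of 12 erythroid markers ran from 38020 to 64262 FPKM in WT and from 31038 to 143412 FPKM in CKO. The median log2 fold change was 0.62 for 6 tested muscle markers and -0.31 for 6 endothelial markers. It was 0.35 for 5 macrophage, 0.16 for 7 ectoderm and 0.13 for 4 neural markers. The part of these shifts in the ciliary values was not tested, and in bulk tissue fewer cells of a type and less RNA per cell cannot be told apart.

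The choice of genes sets a minimum mean of 0.5 FPKM, and other ciliary transport genes lay under it, such as *Kif17*, a further kinesin, at a mean of 0.157 FPKM. Member reads ranged from 66 to 2580 per gene and library. The highest mean belonged to *Ift27*, a small GTPase of IFT-B, at 21.9, 27.6 and 21.8 FPKM in WT and 18.9, 21.9 and 18.3 FPKM in CKO. *Ift74*, the IFT-B partner of *Ift81* in tubulin transport, stood beside it at 23.04 ± 3.35 FPKM in WT. The lowest, *Nphp4*, a transition zone scaffold, was at 1.15, 0.919 and 1.11 FPKM in WT and 1.12, 0.726 and 0.652 FPKM in CKO. Both genes had overlapping groups. FPKM is scaled by the merged length of all annotated exons, which can exceed that of a transcript, so levels of different genes compare only roughly. Most listed motile cilia genes were scarce: of 15 markers of multiciliated cells in the table, 11 were under the 0.5 FPKM limit. The highest mean among those was that of *Foxj1*, the motile cilium regulator, at 0.291 FPKM. The other 4 were *Tekt1*, *Ccdc39*, *Ccdc40* and *Dnah11*, at means of 2.62, 2.54, 1.58 and 0.785 FPKM.

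No member passed the test across all genes. At an adjusted limma p under 0.05, 0 of 43 ciliary genes were called, beside 0.065% of all 12305 tested genes. By limma voom on recovered reads, a second method, 0 were called and 9 had an unadjusted p under 0.05 (20.9%, beside 8.48% of tested genes). At an unadjusted p under 0.05, 8 of 43 (18.6%) passed, beside 8.31% of all tested genes. The members' share stood above the background without CKO replicate 2 (14% beside 5.79%) but not when any other library was left out: it was 6.98% beside 11.3% without WT replicate 1, 4.65% beside 4.67% without WT replicate 2 and 2.33% beside 4.17% without WT replicate 3. It was 16.3% beside 19.6% without CKO replicate 1 and 2.33% beside 4.68% without CKO replicate 3. Of the 8, 6 were lower in CKO (14%, beside 5.46%) and 2 were higher (4.65%, beside 2.84%). None reached a fold over 2 or under 0.5 with an unadjusted p under 0.05, a criterion met by 0.813% of the tested genes. The intervals show how far the data limit a change: the 95% interval of the log2 fold change lay within -1 to 1 for 42 of 43 members, all except *Bbs10* (background 89.4%), and within -0.5 to 0.5 for 16 of them (background 38.5%).

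The genes leaned slightly downward in CKO. The median log2 fold change of the 43 was -0.07, beside 0.0048 for all tested genes, with a range of -0.11 (without WT replicate 1) to -0.05 (without WT replicate 2) when 1 library was left out, and 28 members (65.1%) were below 0, beside 49.1% of the background. With 1 library left out, that count ran from 24 (without CKO replicate 1) to 30 (without CKO replicate 2). Beside these, 6192 and 6257 of 12305 tested genes were below 0. Between WT and CKO libraries of equal replicate number, the median was -0.03, -0.06 and -0.19 for replicates 1, 2 and 3. It was below the median of all tested genes in each, which was -0.01, 0.0014 and 0.0014. The direction was the same in all 3 pairs for 25 members (58.1%, background 39.5%): 15 were lower in CKO (34.9%, background 21.3%) and 10 were higher (23.3%, background 18.2%). The 3 WT and 3 CKO values did not overlap for 9 members (20.9%), beside 14.5% of tested genes. Of these, 7 were lower in every CKO library (16.3%, background 8.86%), among them *Bbs12*, *Ift81*, *Rpgrip1l*, *Ift88* and *Wdr19*, and *Bbs2* and *Wdr35* were higher (4.65%, background 5.63%). With 3 against 3 libraries, the exact two-sided permutation test cannot give less than p = 0.1.

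**Figure D2:**
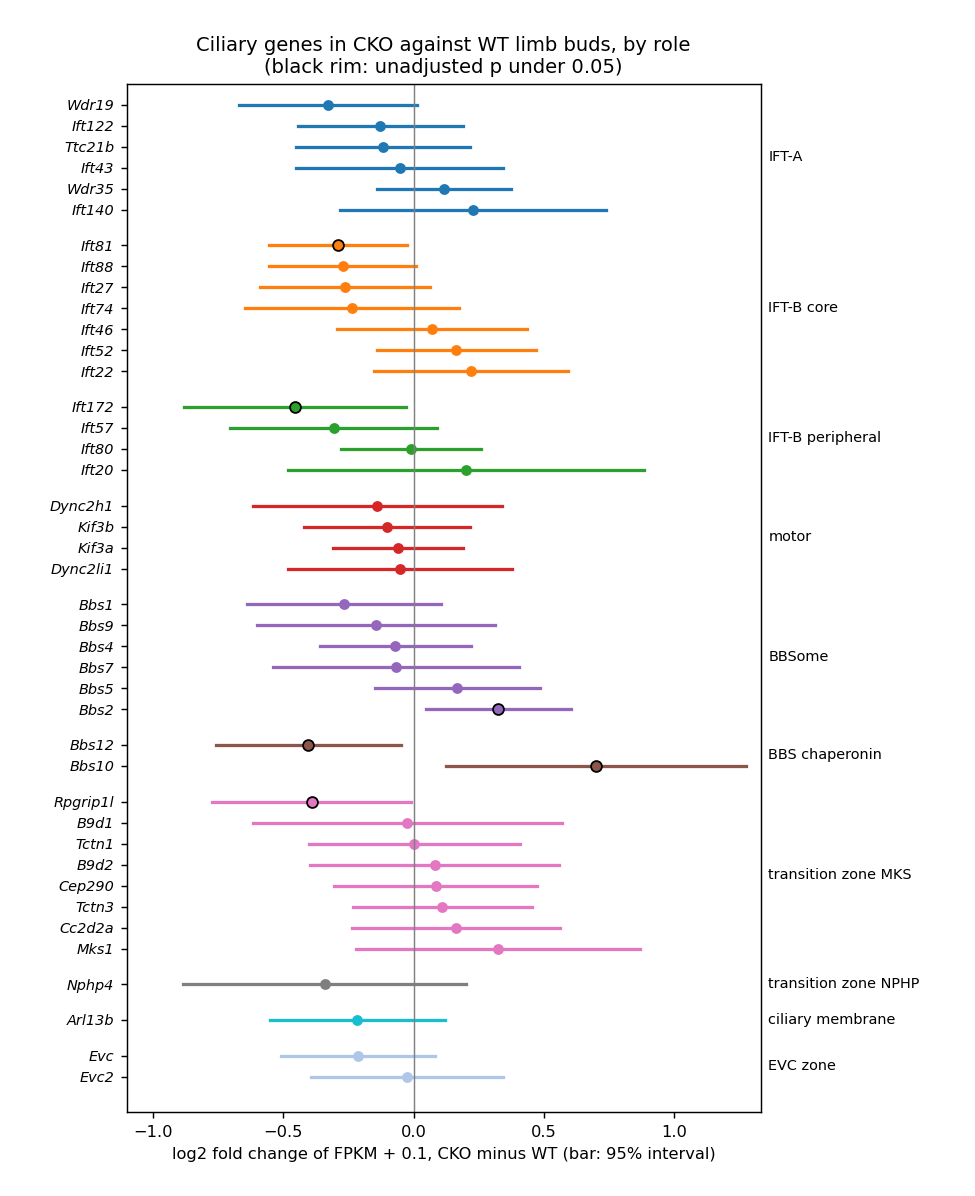
Points give the log2 fold change of FPKM + 0.1 in CKO against WT (3 libraries each) for 41 of the 43 genes, grouped and coloured by role, with bars for the 95% interval and a black rim where the unadjusted limma p is under 0.05. The 6 rimmed points lie on both sides of 0, 4 below and 2 above, and *Bbs10* alone reaches past 1 with its interval.

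The IFT-B complex held 11 members, of which 7 were below 0. *Ift81*, which binds tubulin cargo together with *Ift74*, was at 7.30, 7.58 and 7.34 FPKM in WT replicates 1 to 3 and at 5.85, 6.59 and 5.73 FPKM in CKO replicates 1 to 3. The groups did not overlap, and the 3 WT libraries sat close together. This gave a log2 fold change of -0.29 (SE 0.11, unadjusted p = 0.0358, adjusted p = 0.561 by limma). *Ift81* (ENSMUSG00000029469) lies at chr5:122550204-122614518 on the minus strand of GRCm38, as do all gene positions given here.

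*Ift172*, a large peripheral IFT-B protein that acts at the ciliary tip, was at 9.52, 8.13 and 8.50 FPKM in WT and at 8.32, 5.29 and 5.72 FPKM in CKO. CKO replicate 1 stood among the WT values while CKO replicates 2 and 3 were lower than every WT library. Its log2 fold change was -0.46 (SE 0.18, unadjusted p = 0.0386, adjusted p = 0.564 by limma). With replicates 2 and 3 alone it was -0.59, with an adjusted p of 0.00185. The gene (ENSMUSG00000038564) lies at chr5:31253277-31291116 on the minus strand.

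The other IFT-B genes among the members did not reach an unadjusted p of 0.05. *Ift88*, whose loss removes cilia in mice, was lower in every CKO library, with a mean of 5.60 ± 0.32 FPKM in WT and 4.63 ± 0.36 FPKM in CKO and a log2 fold change of -0.27. *Ift57*, whose X-box is shown above, had a log2 fold change of -0.31, *Ift27* one of -0.26 and *Ift74* one of -0.24. On the other side, *Ift22*, a further small GTPase, had a log2 fold change of 0.22, *Ift20*, which also works at the Golgi, one of 0.20, and *Ift52*, a core scaffold, one of 0.16. *Ift46* stood at 0.07 and *Ift80* at -0.01. Members of the same complex had estimates on both sides of 0, and their differences from each other were not tested.

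The 6 IFT-A genes, which serve return transport and the entry of membrane proteins, ran from -0.33 to 0.23 on the log2 scale, and 0 of them had an unadjusted p under 0.05. *Wdr19* was lower in every CKO library, at 1.94 ± 0.16 FPKM in WT and 1.52 ± 0.09 FPKM in CKO (log2 fold change -0.33, SE 0.15, adjusted p = 0.614 by limma). *Wdr35* was higher in every CKO library, at 6.11 ± 0.32 FPKM in WT and 6.63 ± 0.19 FPKM in CKO, a log2 fold change of 0.12. *Ift122* was at -0.13, *Ttc21b*, a known restraint on hedgehog signalling, at -0.12 and *Ift43* at -0.05. *Ift140* had the highest estimate of the complex, 0.23, which rested on 1 library. It was at 16.2 FPKM in CKO replicate 2 and at 8.73 to 10.8 FPKM in the other libraries, and its log2 fold change was -0.01 without CKO replicate 2. This library was singled out after its values were seen.

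The 4 motor genes among the members had estimates from -0.14 to -0.05. *Kif3a* and *Kif3b*, subunits of the kinesin that moves outward, had log2 fold changes of -0.06 and -0.10. *Dync2h1* and *Dync2li1*, the heavy chain and light intermediate chain of the dynein that moves inward, had -0.14 and -0.05. All 4 estimates were below 0, and the smallest adjusted p among them was 0.887 by limma. For *Kif3a*, the most abundant of them at 14.4 ± 0.80 FPKM in WT and 13.8 ± 0.60 FPKM in CKO, the 95% interval of the log2 fold change ran from -0.31 to 0.19. That of *Dync2h1* was wider, from -0.62 to 0.34.

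The BBS genes held the member with the largest fold change. *Bbs10*, a chaperonin-like protein needed to assemble the BBSome, was at 1.20, 2.07 and 1.47 FPKM in WT replicates 1 to 3 and at 1.94, 3.05 and 2.86 FPKM in CKO replicates 1 to 3. CKO replicates 2 and 3 were above every WT library, and CKO replicate 1 fell just under WT replicate 2. The mean was 1.58 ± 0.44 in WT and 2.62 ± 0.59 in CKO (SD, n = 3), 1.65 times higher. The log2 fold change was 0.70 (SE 0.25, 95% interval 0.12 to 1.27, unadjusted p = 0.0231, adjusted p = 0.517 by limma).

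Within the numbered pairs, *Bbs10* was higher in CKO in 3 of 3, by 0.65, 0.54 and 0.91 on the log2 scale. When the limma model carried the replicate number as a block, so that libraries were compared within pairs, it was the only member called (adjusted p = 0.0312), 2.33% of the 43 beside 2.81% of all tested genes. By limma voom with the block, *Bbs10* and *Ift172* were called, 4.65% of members beside 5.11% of tested genes. The values rest on 66, 151 and 98 recovered reads in WT and 107, 178 and 208 in CKO, the fewest of any member in WT replicate 1. *Bbs10* (ENSMUSG00000035759) lies at chr10:111298679-111301727 on the plus strand. With each library rescaled outside the globin genes, the blocked log2 fold change was 0.60, with an adjusted p of 0.0819.

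*Bbs12*, the second chaperonin-like gene, had an estimate of the opposite sign. It was at 4.19, 4.03 and 4.23 FPKM in WT and at 2.56, 3.56 and 3.30 FPKM in CKO. WT values were tight and all CKO libraries lay below them. This is a log2 fold change of -0.40 (SE 0.15, unadjusted p = 0.0302, adjusted p = 0.551 by limma). The gene (ENSMUSG00000051444) lies at chr3:37312554-37321453 on the plus strand. Its exons share 32 bases with *Gm43439* on the same strand and 32 with *Cetn4* on the opposite strand.

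In the BBSome itself, *Bbs2*, a core subunit, was at 5.50, 4.88 and 5.22 FPKM in WT and at 7.13, 6.14 and 6.37 FPKM in CKO. Each CKO library was above each WT library. *Bbs2* had a log2 fold change of 0.32 (SE 0.12, unadjusted p = 0.028, adjusted p = 0.550 by limma). *Bbs2* (ENSMUSG00000031755) lies at chr8:94067954-94098928 on the minus strand. The other 5 BBSome genes among the members overlapped between genotypes. *Bbs5* had a log2 fold change of 0.17, *Bbs4* and *Bbs7* one of -0.07 each, *Bbs9* one of -0.14 and *Bbs1* one of -0.27. WT levels of these BBSome members ran from 3.03 FPKM (*Bbs9*) to 5.20 FPKM (*Bbs2*), and subunits outside the choice by symbol are not counted here.

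**Figure D3:**
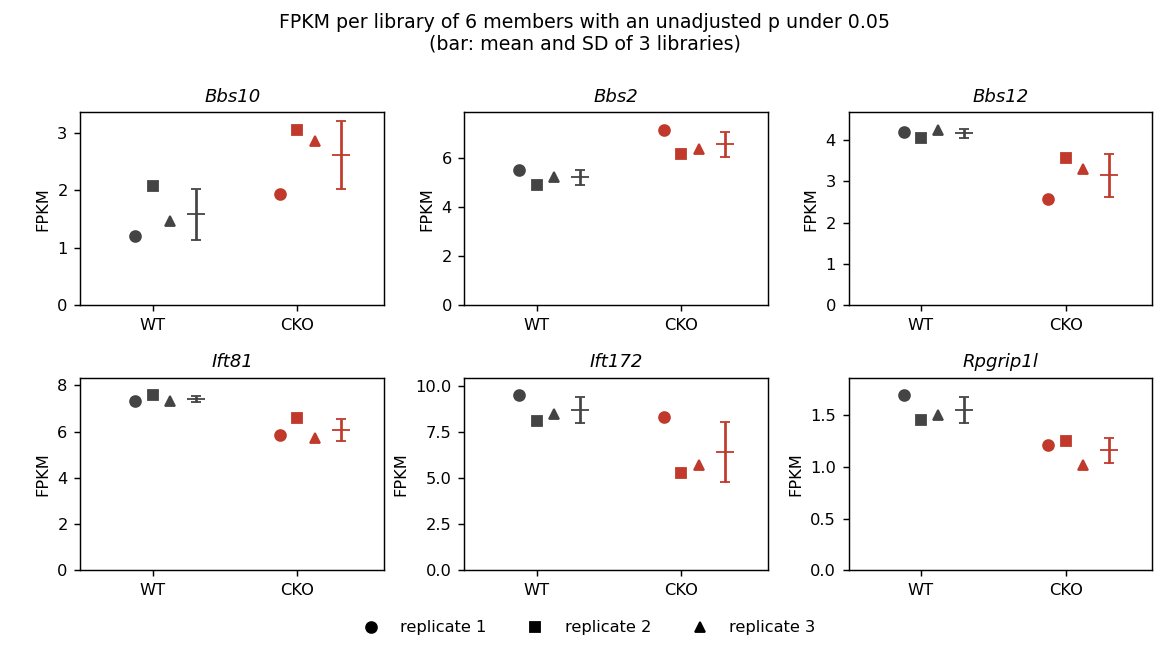
Each panel plots FPKM in the 3 WT and 3 CKO libraries for one of 6 genes with an unadjusted p under 0.05, with symbols for the replicate number and a bar for the mean and SD of 3 libraries. *Bbs2*, *Bbs12*, *Ift81* and *Rpgrip1l* show no overlap between genotypes, whereas a CKO library of *Bbs10* and of *Ift172* lies within the WT range.

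At the transition zone, *Nphp4*, whose values are given above, had a log2 fold change of -0.34 (SE 0.23, adjusted p = 0.769 by limma). *Rpgrip1l*, which anchors the other modules at the transition zone, was at 1.69, 1.45 and 1.50 FPKM in WT and at 1.21, 1.25 and 1.02 FPKM in CKO. The groups did not overlap. This gave a log2 fold change of -0.39 (SE 0.16, unadjusted p = 0.046, adjusted p = 0.580 by limma). *Rpgrip1l* (ENSMUSG00000033282) lies at chr8:91217030-91313262 on the minus strand. It was the lowest of the 8 MKS module genes, of which 6 were above 0.

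*Mks1*, a B9-domain protein mutated in Meckel syndrome, had the highest estimate of the MKS module, 0.32 (SE 0.23). The 3 WT libraries were at 3.41 to 3.52 FPKM, while CKO replicates 1 to 3 were at 6.23, 3.10 and 4.30 FPKM. CKO replicate 1 was the highest and CKO replicate 2 was below all WT libraries, a spread that was noticed after the values were seen. *Cc2d2a* was at 0.16, *Tctn3* at 0.11, *Cep290*, a protein of the links between microtubules and membrane, at 0.09 and *B9d2* at 0.08. *Tctn1* and *B9d1* were within 0.03 of 0. Exons of *Tctn1* share 2113 bases, and those of *Cep290* 881 bases, with genes on the opposite strand, whose reads may be included. The median of the MKS module was 0.08.

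The genes tied most closely to hedgehog reception in the cilium did not reach an unadjusted p of 0.05. *Arl13b*, a GTPase of the ciliary membrane, was at 5.49 ± 0.56 FPKM in WT and 4.72 ± 0.60 FPKM in CKO, a log2 fold change of -0.22 (SE 0.14, adjusted p = 0.761 by limma). *Evc* and *Evc2*, a protein pair that relays the Smoothened signal and is mutated in Ellis-van Creveld syndrome, lie 1604 bases apart. *Evc* was at 6.58 ± 0.34 FPKM in WT and 5.67 ± 0.62 FPKM in CKO, a log2 fold change of -0.21. *Evc2* was at 5.85 ± 0.62 and 5.78 ± 1.03 FPKM, a log2 fold change of -0.02.

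Replicate 1 stood apart from replicates 2 and 3 in both genotypes, and the shift ran with the merged length of the annotated exons. The difference of replicate 1 from the mean of replicates 2 and 3, in log2 units, rose with merged exon length over the 43 genes, with a Spearman rho of 0.53 in WT and 0.51 in CKO. Over 12294 tested genes with a length, rho was 0.38 and 0.42. Genes share libraries and are not independent, so no p is given. The 5 members under 2000 bases, *B9d2*, *Ift20*, *B9d1*, *Ift43* and *Dync2li1*, had a median difference of -0.37 in WT and -0.62 in CKO. The 9 members over 8000 bases had 0.17 and 0.12. *Ift20* showed it plainly: it was at 10.9, 19.9 and 18.0 FPKM in WT replicates 1 to 3 and at 12.5, 23.4 and 20.3 FPKM in CKO.

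**Figure D4:**
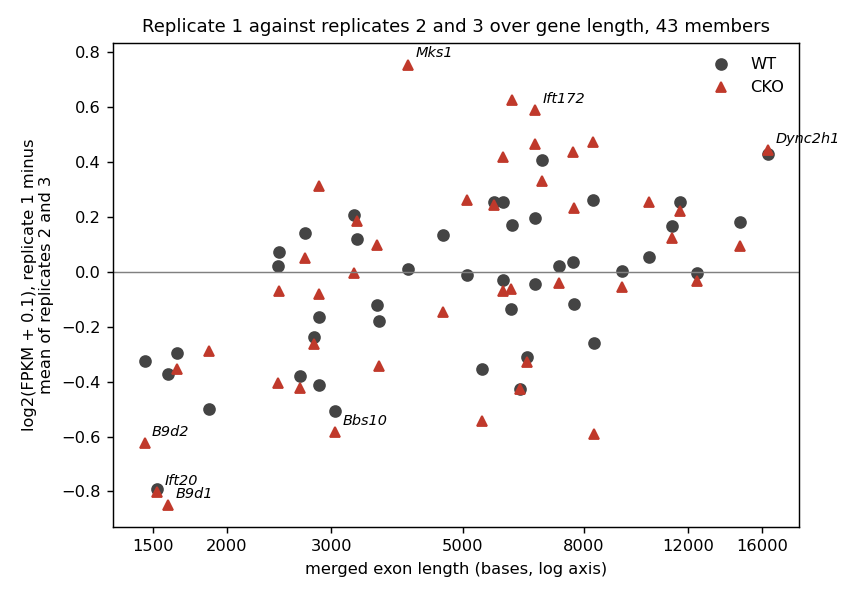
Each gene is plotted by merged exon length (bases, log axis) and by the log2(FPKM + 0.1) difference of replicate 1 from the mean of replicates 2 and 3, for WT (circles) and CKO (triangles). Short genes such as *Ift20* and *B9d1* lie below 0 in both genotypes and long ones such as *Dync2h1* above 0, with a Spearman rho of 0.53 in WT and 0.51 in CKO.

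With replicates 2 and 3 alone, 2 libraries against 2, 5 members were called at an adjusted limma p under 0.05 (11.6%), beside 15% of all tested genes. *Bbs10* was higher in CKO and 4 members were lower, among them *Ift172* and *Ift57*. The share was near that of the background, so the count says nothing particular about the ciliary genes.

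Other ciliary genes were read from lists. Of 36 further genes of IFT, the BBSome, the transition zone and the ciliary membrane, 34 were tested. None of them was called at an adjusted limma p under 0.05, and the median log2 fold change was -0.08. At an unadjusted p under 0.05, 6 were lower in CKO, beside 5.46% of all tested genes, and 0 were higher, beside 2.84%. *Ahi1*, the transition zone gene of Joubert syndrome, had the lowest log2 fold change. It was at 4.75, 4.63 and 4.66 FPKM in WT and at 2.80, 3.08 and 2.78 FPKM in CKO. The 3 libraries of each genotype were tightly grouped and well apart. Its log2 fold change was -0.68 (SE 0.12, adjusted p = 0.166 by limma, and 0.0130 with the replicate block).

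*Invs*, which gives the inversin compartment of the cilium its name, was at 2.05, 1.90 and 1.62 FPKM in WT and at 1.21, 1.23 and 1.25 FPKM in CKO. The genotypes did not overlap. Its log2 fold change was -0.55 (SE 0.16, adjusted p = 0.399 by limma). The other 4 were *Tctex1d2* (log2 fold change -0.61), *Ttc30b* (-0.44), *Tmem231* (-0.34) and *Rabl2* (-0.31).

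Of 30 tested basal body and centriolar genes, 0 were called at an adjusted p under 0.05 by limma, with a median of -0.05. At an unadjusted p under 0.05, 2 were lower, beside 5.46% of all tested genes, and 0 were higher, beside 2.84%. *Cep131*, a satellite protein, was at 14.04, 13.2 and 12.7 FPKM in WT and at 11.3, 6.61 and 7.68 FPKM in CKO. All CKO libraries were lower, CKO replicate 1 least. This gave a log2 fold change of -0.67 (SE 0.20, adjusted p = 0.408 by limma, and 0.0172 with the replicate block). The second was *Poc1a*, at -0.35.

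Among 7 tested transcription factors of ciliary genes, 0 were called at an adjusted limma p under 0.05. *Rfx5* alone had an unadjusted p under 0.05, beside 8.31% of all tested genes. *Rfx5* belongs to the family that binds the X-box, though its best known role is at MHC class II promoters. It was at 6.23, 6.19 and 6.21 FPKM in WT and at 4.91, 3.67 and 3.37 FPKM in CKO, lower in every CKO library. *Rfx5* had a log2 fold change of -0.65 (SE 0.16, adjusted p = 0.311 by limma, and 0.0225 with the replicate block). Of 14 tested genes for tubulins and for enzymes that modify tubulin, 0 had an unadjusted p under 0.05, beside 8.31% of all tested genes. The median log2 fold change of this mixed list was 0.03.

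None of the 14 hedgehog pathway genes reached an unadjusted p of 0.05, beside 8.31% of all tested genes. Of the 14, 11 were below 0 (median log2 fold change -0.13), beside 49.1% of all tested genes. The transcriptional targets *Gli1* and *Ptch1* had log2 fold changes of -0.23 and 0.07, and *Smo*, the receptor that enters the cilium, had -0.14. *Shh*, the ligand, was at 3.24 FPKM on average in WT and 3.37 FPKM in CKO, a log2 fold change of 0.03 (SE 0.21). The paper reports lower *Shh* in E11.5 CKO limb buds by qPCR and by in situ hybridization, other measures than this one.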

How the data were processed

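The 3 WT and 3 CKO RNA-seq libraries of E11.5 limb buds were used. Samples of the study's other assays (ATAC-seq, CUT&RUN, Hi-C) were not used here. From stranded mRNA libraries the authors derived FPKM, deposited as 1 table of 22040 genes. The submitters' processing notes name cutadapt 2.5, HISAT2 2.1.0, featureCounts 1.6.3 and mm10. The annotation and the strand setting of the counting were not given in the sources used here, so antisense reads may be included. FPKM times merged exon length (GENCODE vM21, 99.5% of identifiers matched) gave whole reads in all libraries for 92.6% of genes, within 0.1 read, and for 39 of 43 members. The library total by which the values were divided was below the recovered reads in CKO replicates 2 and 3 and above them in the other libraries.

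Values were tested as log2(FPKM + 0.1) with limma 3.58.1 (R 4.3.3, trended eBayes) over the 12305 genes with a mean of at least 0.5 FPKM. Adjusted p-values are Benjamini-Hochberg over all of them. Fold changes on this scale understate those of low genes. Nothing says that the libraries came from separate litters, so p-values measure the spread between these libraries.

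The labels number replicates 1 to 3 in both genotypes. Deviations from group means correlated at 0.64, 0.44 and 0.27 between libraries of equal number, and the numbers were treated as pairs. WT replicate 2 correlated slightly more with CKO replicate 3 (0.49), and WT replicate 3 with CKO replicate 2 (0.31). The correlations thus do not bear out the numbering of replicates 2 and 3, and the pairing rests mainly on replicate 1. Counts over pairs and results with the block depend on that numbering. No blocked adjusted p is printed where it changes no call, apart from those given for *Bbs10* and the genes of the other lists.

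Some members enter the counts and medians but their own values are not reported here. Library values are given for the other members with an unadjusted p under 0.05 or an adjusted p under 0.05 with or without the block, and for the highest and lowest members. The members, lists and tests were chosen with earlier results of these data known. Alternatives were pseudocounts of 0.5 and 1, other filters and scalings, eBayes without the trend, the replicate block, leaving out libraries and, chosen after seeing the data, limma voom on recovered reads and the block with other scalings. Promoter sequences are those of RefSeq on GRCm38.p6.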

Additional observations from a re-analysis of the deposited data

How the results depend on the processing

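The count of members called was 0 under most of the 20 alternatives. With the replicate block, 1 member (*Bbs10*) was called as higher, and the block changed no other member's call. With replicates 2 and 3 alone, 1 was higher and 4 were lower. Chosen after seeing the data, limma voom on recovered reads with the replicate block called 1 higher (*Bbs10*) and 1 lower (*Ift172*), the block with median-ratio scaling 1 higher (*Bbs10*), and the block rescaled outside globin genes 2 lower, among them *Ift172*. Over all tested genes, calls rose from 8 to 346 with the block and to 1851 with replicates 2 and 3 alone.

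Unadjusted calls depended on single libraries: from 8 members, they fell to 3 without WT replicate 1, 2 without WT replicate 2, 1 without WT replicate 3 and 1 without CKO replicate 3, and were 7 and 6 without CKO replicates 1 and 2. Only without CKO replicate 2 did the share stay above that of all tested genes (14% beside 5.79%). By direction, leaving out 1 library gave 0 to 2 higher and 1 to 6 lower, and members without overlap were 2 to 9 higher and 7 to 16 lower, the highest without CKO replicate 1 (20.9% and 37.2%, beside 21.3% and 20.7% of all tested genes). With replicates 2 and 3 alone, 10 of 43 were lower at an unadjusted p, beside 1781 of 12305 tested genes. In that setting 10 higher (23.3%, beside 29.3%) and 18 lower (41.9%, beside 29.2%) showed no overlap. The median of the members ran from -0.11 to -0.05 when 1 library was left out. Rescaling outside the globin genes moved the median of all tested genes to -0.10 and that of the members to -0.17, with and without the block. It left 1 member higher at an unadjusted p, beside 142 of 12305 tested genes (393 with the block). It also left 1 higher without overlap (2.33%, beside 2.47%). With the block, 12 of 43 were lower at an unadjusted p, beside 1920 of 12305 tested genes. The cause was not tested.

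Of 43 members, 13 changed sign under some alternative, all with estimates whose intervals included 0. Under rescaling outside the globin genes, with and without the block, *Tctn1* was at -0.10, *B9d2* at -0.024, *Cep290* at -0.019 and *Ift46* at -0.036. *Ift80* was at 0.00047 under median-ratio scaling with and without the block, 0.026 under quantile normalization, 0.00015 with replicates 2 and 3 alone, and 0.00027 and 0.00032 under voom without and with the block. *Evc2* was at 0.0015 under quantile normalization. With replicates 2 and 3 alone, *Tctn1* was at -0.068 and *B9d1* at 0.13, and *B9d1* was at 0.026 under voom with the block. Leaving out 1 library moved these genes across 0, over ranges of -0.23 to 0.11 (*Bbs7*), -0.056 to 0.024 (*Ift80*), -0.16 to 0.060 (*Evc2*), -0.15 to 0.10 (*Tctn1*), -0.079 to 0.29 (*B9d2*), -0.022 to 0.21 (*Cep290*), -0.29 to 0.0044 (*Dync2h1*), -0.034 to 0.18 (*Ift46*), -0.24 to 0.26 (*B9d1*), -0.063 to 0.47 (*Ift20*), -0.15 to 0.090 (*Ift43*), -0.014 to 0.42 (*Ift140*) and -0.22 to 0.11 (*Dync2li1*).

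With 3 libraries a group, the standard error of a member's log2 fold change was 0.11 to 0.29, which limits what sizes of change can be settled. Intervals cover the spread between libraries alone.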
